A study of Mus musculus with 12 samples.

Results

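The RNAs described here were 8 transcripts that are not translated or are kept mainly for what their introns carry: Malat1, Neat1, H19, Meg3, Gas5, Snhg1, Snhg12 and 5730408K05Rik. They were chosen by gene symbol with earlier results of these libraries known, so their values over the groups are given as a description, with no test. All 8 had a row among the 23282 rows of the count table, and 7 passed the filter on low counts. H19 did not pass it.

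Malat1 and Neat1 are long RNAs that stay in the nucleus, where Malat1 gathers at splicing speckles and Neat1 builds paraspeckles. H19 and Meg3 are imprinted RNAs, transcribed from the maternal chromosome. Gas5, Snhg1, Snhg12 and 5730408K05Rik carry small nucleolar RNAs (snoRNAs), which guide the modification of ribosomal RNA. When such a host is spliced, the snoRNAs are trimmed from its introns and the joined exons are usually destroyed soon after by nonsense-mediated decay, the pathway that removes RNAs with an early stop codon.

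RNA was taken from C22 cells, a cloned mouse lung club (Clara) cell line derived from H-2Kb-tsA58 mice, whose temperature-sensitive large T antigen makes cells conditionally immortal. The cells were differentiated, transfected with a negative control siRNA (NC) or with siPDCD5, an siRNA against Pdcd5, a protein linked to apoptosis, and starved of serum for 2 h. They were then left without or given TGF-β1, a cytokine that drives matrix production, at 20 ng/ml for 24 h. Each of the 4 groups (NC, NC + TGF-β1, siPDCD5, siPDCD5 + TGF-β1) had 3 libraries of the QuantSeq type, which are primed on stretches of A and read the 3′ ends of RNAs, and all 12 came from 1 clonal line.

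The libraries held 12809857 to 17714828 counts, so that 3 counts stood for 0.165 to 0.239 CPM (counts scaled to a common library size, the usual 1e6). Pdcd5 measured 65.1 to 73.5 CPM in the 6 NC libraries with and without TGF-β1 and 20.0 to 26.4 CPM in the 6 siPDCD5 libraries. Of 6 club cell markers, Scgb3a2 and Cyp2f2 were at 0 in all 12 libraries and Scgb1a1 and Scgb3a1 reached no more than 0.0731 and 0.366 CPM, while Aldh1a1 reached 556 CPM and Foxa2 213 CPM. The defining secretoglobins of club cells were thus near or under the floor. Replicate 2 of NC + TGF-β1 and replicate 1 of siPDCD5 stood apart: over 9128 genes their deviations from their own group means correlated with r = 0.79, and the component they led held 59.9% of the variance of such deviations. Values are therefore also given without these 2 libraries, a choice made after seeing the data. In bulk RNA, fewer cells of a type and less RNA per cell cannot be told apart.

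Malat1 (chr19:5795690-5802672, minus strand, GRCm38) and Neat1 (chr19:5824708-5845478, minus strand) lie 22036 bases apart. The mature 3′ end of Malat1 carries no poly(A) tail added after cleavage but ends near a stretch of A that the genome itself encodes, and the small mascRNA is cut from the RNA beyond it. That stretch is shown because the libraries were primed on A. In the GENCODE transcript, the run of 12 A (capitals, shown with 25 bases on either side, chr19:5795963-5796024, minus strand, GRCm38) ends 6 bases before mascRNA begins and is the single run of 8 or more in the 6983 bases.
Malat1: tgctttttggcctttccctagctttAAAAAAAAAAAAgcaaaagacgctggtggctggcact
The 20771 bases of the long Neat1 transcript and the 3004 bases of the short one hold no run of 8 or more A. Counts were per gene symbol, so the Neat1 levels below do not tell the long transcript from the short one.

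The 4 snoRNA hosts are shown by the bases around their annotated starts, since host RNAs as a class are known for starting within a run of pyrimidines (the 5′ terminal oligopyrimidine, or TOP, feature that they share with messengers of the translation machinery). Each line holds 60 bases before the RefSeq start and 40 from it on, on the transcribed strand in GRCm38.p6, and the longest pyrimidine run within 20 bases of the start is in capitals. The windows lie at chr1:161035106-161035205 for Gas5, chr19:8723427-8723526 for Snhg1, chr4:132308618-132308717 for Snhg12 and chr19:8888731-8888830 for 5730408K05Rik, which alone among them is on the minus strand.
Gas5: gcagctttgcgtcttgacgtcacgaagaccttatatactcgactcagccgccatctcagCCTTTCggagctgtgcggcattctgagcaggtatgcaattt
Snhg1: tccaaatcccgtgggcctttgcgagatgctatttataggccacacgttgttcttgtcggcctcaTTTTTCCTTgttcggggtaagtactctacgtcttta
Snhg12: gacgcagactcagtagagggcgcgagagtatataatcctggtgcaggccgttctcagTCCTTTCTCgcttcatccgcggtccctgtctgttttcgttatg
5730408K05Rik: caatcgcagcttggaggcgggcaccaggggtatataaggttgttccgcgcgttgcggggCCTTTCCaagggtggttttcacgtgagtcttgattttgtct
The runs are 6, 9, 9 and 7 bases long. A run of at least 5 pyrimidines within 20 bases of the start is common, being found in 64.1% of 32851 RefSeq windows, and the longer-annotated start of Gas5, which opens upstream of the one shown, has none.

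The hosts differ in what they carry. Gas5 (chr1:161034422-161038539, plus strand) overlaps 9 annotated snoRNA genes on its own strand, Snhg1 (chr19:8723475-8726443, plus strand) 8, and Snhg12 (chr4:132308623-132311024, plus strand) 4. 5730408K05Rik (chr19:8888387-8888770, minus strand) spans 384 bases, lies 161944 bases from Snhg1, and holds 1, Snora57. Its snoRNA is printed because it takes up 148 of the 384 bases (chr19:8888538-8888685, minus strand). The ACA box that names the H/ACA class of pseudouridine guides is in capitals and stands 3 bases from the end.
Snora57: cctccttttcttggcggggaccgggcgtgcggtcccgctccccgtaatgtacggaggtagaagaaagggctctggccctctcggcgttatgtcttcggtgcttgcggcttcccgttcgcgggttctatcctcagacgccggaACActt

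Among the long RNAs, Neat1 had the levels that set groups apart. It measured 1994, 2145 and 2147 CPM in NC and 1717, 1657 and 1312 CPM in NC + TGF-β1. In siPDCD5 it measured 3364, 2780 and 3107 CPM, and in siPDCD5 + TGF-β1 1571, 1857 and 1902 CPM. The siPDCD5 libraries without TGF-β1 were all above those of every other group, the NC libraries came next, and the libraries of both TGF-β1 groups lay below them and overlapped each other. The group means were 2095 ± 87.9 (SD, n = 3) in NC and 1562 ± 219 in NC + TGF-β1, compared with 3084 ± 293 in siPDCD5 and 1777 ± 180 in siPDCD5 + TGF-β1.

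Expressed as fold changes on the log2 scale, Neat1 differed by −0.42 (SE 0.12) after TGF-β1 in NC cells and by −0.80 (SE 0.12) after TGF-β1 in siPDCD5 cells. After knockdown it differed by 0.56 (SE 0.12) without TGF-β1 and by 0.19 (SE 0.12) with it. The difference of both TGF-β1 responses was −0.37 (SE 0.17). Both TGF-β1 comparisons and the 2 knockdown comparisons share libraries in pairs, so these values are not independent of each other. Without the 2 libraries that stood apart the 4 differences were −0.48, −0.73, 0.48 and 0.235, and the difference of responses was −0.25.

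Malat1 was the gene with the second-highest count in all 12 libraries, after the ribosomal RNA precursor Rn45s, and took 1.62% to 2.90% of the counts. It measured 23146, 28523 and 24211 CPM in NC and 23716, 26406 and 22522 CPM in NC + TGF-β1. It measured 25133, 23011 and 20855 CPM in siPDCD5 and 16178, 18748 and 21320 CPM in siPDCD5 + TGF-β1. Groups overlapped at each step of the order of means, and the siPDCD5 + TGF-β1 libraries, the lowest group, lay below all NC and NC + TGF-β1 libraries. The log2 fold changes were −0.06 (SE 0.13) after TGF-β1 in NC cells, −0.30 (SE 0.13) after TGF-β1 in siPDCD5 cells, −0.14 (SE 0.13) after knockdown without TGF-β1 and −0.37 (SE 0.13) after knockdown with it. They were −0.14, −0.23, −0.21 and −0.30 without the 2 libraries that stood apart. Quantile normalization, which the authors used, gives genes of equal rank equal values, so that Malat1 with its fixed rank has a difference of 0 on that scale in every comparison.

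**Figure D1:**
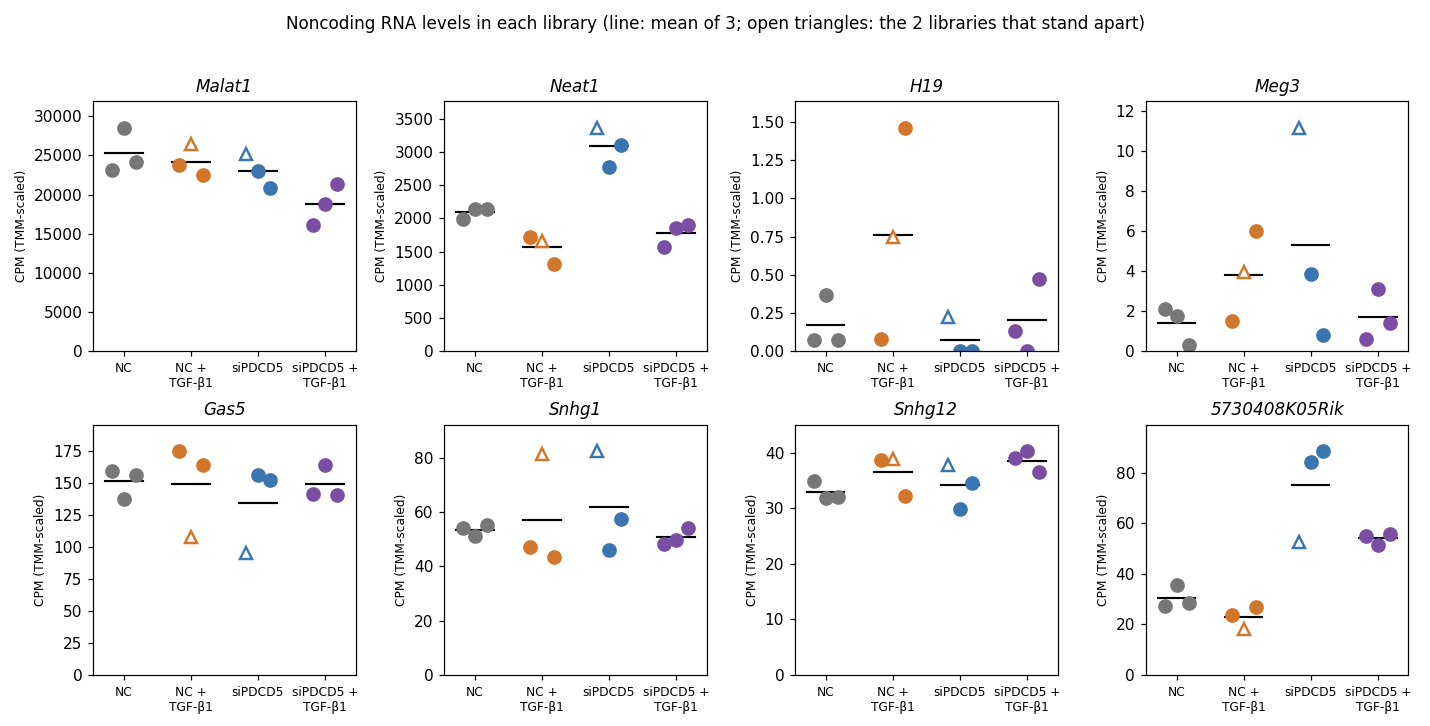
Level of each of the 8 noncoding RNAs in CPM, scaled by library size with TMM factors (vertical axes, each starting at 0), in the 12 libraries by group (horizontal axes), with a line at the mean of the 3 libraries and open triangles for the 2 libraries that stood apart. Neat1 in siPDCD5 cells sits at 2780 to 3364 CPM, above every other library, and 5730408K05Rik in both siPDCD5 groups sits at 51.3 to 88.3 CPM, above every NC library, while Gas5 and Snhg1 are set apart by the triangles rather than by group.

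The imprinted RNAs were scarce. H19 had 1, 5 and 1 counts in NC and 1, 10 and 20 in NC + TGF-β1, compared with 3, 0 and 0 in siPDCD5 and 2, 0 and 7 in siPDCD5 + TGF-β1. Of the 12 libraries, 8 were thus at or under 3 counts, and no fold change was computed. Meg3 (chr12:109541001-109571726, plus strand) had 28, 24 and 4 counts in NC and 19, 53 and 82 in NC + TGF-β1, compared with 151, 70 and 13 in siPDCD5 and 9, 40 and 21 in siPDCD5 + TGF-β1.

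Meg3 levels ranged from 0.307 to 11.1 CPM and differed up to 13.3-fold between libraries of 1 group (siPDCD5), so that all 4 groups overlapped. Its SD within groups, 1.31 on the log2 CPM scale, compares with a median of 0.195 over all genes tested. The log2 fold changes of Meg3, 1.44 (SE 0.83), −1.64 (SE 0.79), 1.88 (SE 0.81) and −1.20 (SE 0.81) in the order used for Malat1, were about as large as that spread. Without the 2 libraries that stood apart the value for TGF-β1 in siPDCD5 cells was −0.52 and that for knockdown without TGF-β1 was 0.76. The neighbours that share the imprinted domains were at or near 0 too: Igf2, beside H19, had at most 5 counts, Dlk1 at most 3 and Rtl1 at most 1 in a library, and the Meg3-domain RNA Rian at most 11.

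Among these 4 snoRNA hosts, 5730408K05Rik had the widest difference between groups. It measured 27.4, 35.5 and 28.6 CPM in NC and 23.6, 18.01 and 26.9 CPM in NC + TGF-β1. In siPDCD5 it measured 52.7, 84.4 and 88.3 CPM, and in siPDCD5 + TGF-β1 54.9, 51.3 and 55.9 CPM. Every siPDCD5 library, with or without TGF-β1, was above every NC library. The NC + TGF-β1 libraries were all below those of NC, and both siPDCD5 groups overlapped through replicate 1 of siPDCD5, the library that stood apart.

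After knockdown 5730408K05Rik differed by 1.30 (SE 0.19) on the log2 scale without TGF-β1, 2.47-fold, and by 1.24 (SE 0.19), 2.37-fold, with it. After TGF-β1 it differed by −0.42 (SE 0.19) in NC cells and by −0.48 (SE 0.18) in siPDCD5 cells. Without the 2 libraries that stood apart the knockdown differences were 1.496 (SE 0.10) and 1.10 (SE 0.11), and those after TGF-β1 were −0.28 (SE 0.12) and −0.68 (SE 0.10). The direction of all 4 was the same with and without them.

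All 384 bases of 5730408K05Rik lie within Lbhd1, a protein-coding gene on the opposite strand, and the strand setting of the authors' counting is not given in the sources used here, so that reads of both genes cannot be told apart with certainty. The row of Lbhd1 measured 44.4 ± 2.35 CPM (SD, n = 3) in NC and 46.0 ± 5.56 in NC + TGF-β1, compared with 41.8 ± 3.25 in siPDCD5 and 44.7 ± 1.91 in siPDCD5 + TGF-β1. Its log2 fold change after knockdown was −0.09 without TGF-β1 and −0.04 with it (edgeR, adjusted p = 0.778 and 0.919), and its libraries overlapped between all groups compared. Snora57 itself has no row of its own.

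Gas5, named for its accumulation in growth-arrested cells, did not separate the groups. It measured 159, 138 and 156 CPM in NC and 174, 108 and 164 CPM in NC + TGF-β1, compared with 94.8, 156 and 152 CPM in siPDCD5 and 141, 164 and 141 CPM in siPDCD5 + TGF-β1. Its 2 lowest values were those of the 2 libraries that stood apart. Its log2 fold changes lay between −0.17 and 0.15 with SEs of 0.19, and without those libraries between −0.18 and 0.15 with SEs of 0.09. The sign turned in the 3 comparisons where the fold change was not 0.00 when those libraries were left out.

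Snhg1 measured 54.0, 51.2 and 55.3 CPM in NC and 47.0, 81.3 and 43.3 CPM in NC + TGF-β1, compared with 82.3, 45.9 and 57.3 CPM in siPDCD5 and 48.1, 49.8 and 54.2 CPM in siPDCD5 + TGF-β1. Here the same 2 libraries were the highest, at 81.3 and 82.3 CPM, and all groups overlapped. After TGF-β1 in NC cells its log2 fold change was 0.10 (SE 0.22) with all libraries and −0.26 (SE 0.10) without the 2. After knockdown with TGF-β1 it was −0.17 (SE 0.22) with all and 0.17 (SE 0.10) without them. Leaving out replicate 2 of NC + TGF-β1 alone gave −0.25 and 0.17, so that the direction in both turned with that library. After TGF-β1 in siPDCD5 cells the value was −0.28 with all libraries and −0.02 without the 2, and after knockdown without TGF-β1 it was 0.21 and −0.06.

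Snhg12 varied least within groups of the 7 RNAs, with an SD of 0.125 on the log2 CPM scale. It measured 34.8, 31.9 and 31.9 CPM in NC and 38.7, 38.9 and 32.2 CPM in NC + TGF-β1, compared with 37.8, 29.9 and 34.5 CPM in siPDCD5 and 39.0, 40.2 and 36.5 CPM in siPDCD5 + TGF-β1. The groups overlapped at each step of their order. Its log2 fold changes ran from 0.05 to 0.18, with SEs of 0.11, and from −0.04 to 0.26 without the 2 libraries that stood apart.

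**Figure D2:**
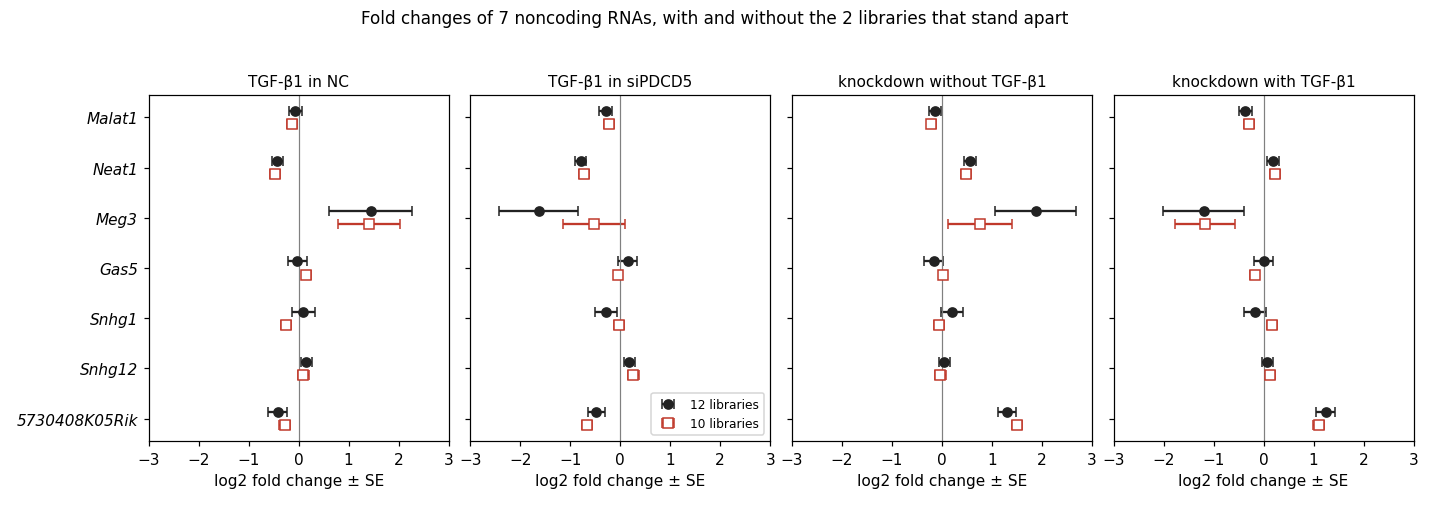
Log2 fold change ± SE (horizontal axes) of the 7 RNAs that passed the filter (vertical axis) in 4 comparisons, from the fit to 12 libraries (filled circles) and to 10, without the 2 libraries that stood apart (open squares). Malat1, Neat1, Meg3 and 5730408K05Rik keep their sign in every panel, while Snhg1 moves from 0.10 to −0.26 for TGF-β1 in NC cells. Meg3 moves from 1.88 to 0.76 for knockdown without TGF-β1.

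Of the 4 hosts, 3 lay further from their group means than the fourth in the 2 libraries that stood apart. In replicate 2 of NC + TGF-β1 and replicate 1 of siPDCD5, Gas5 was 0.43 and 0.47 below its group means on the log2 CPM scale, and 5730408K05Rik 0.32 and 0.47 below. In the same libraries Snhg1 was 0.57 and 0.45 above. The fourth host, Snhg12, deviated by 0.09 and 0.16, Neat1 by 0.09 and 0.13 and Malat1 by 0.13 and 0.13, so that these 3 lay closer to their group means there.

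Over the 12 libraries the deviations of Gas5 and Snhg1 from their group means had r = −0.89, those of Snhg1 and 5730408K05Rik r = −0.85, and those of Gas5 and 5730408K05Rik r = 0.74. The points share the library and its depth, and each group mean includes the library that is set against it. With the component that the 2 libraries led, r was −0.95 for Gas5, 0.93 for Snhg1 and −0.79 for 5730408K05Rik, and it was 0.57 for Snhg12, 0.53 for Malat1, 0.48 for Neat1 and 0.26 for Meg3. What set these libraries apart was not tested.

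**Figure D3:**
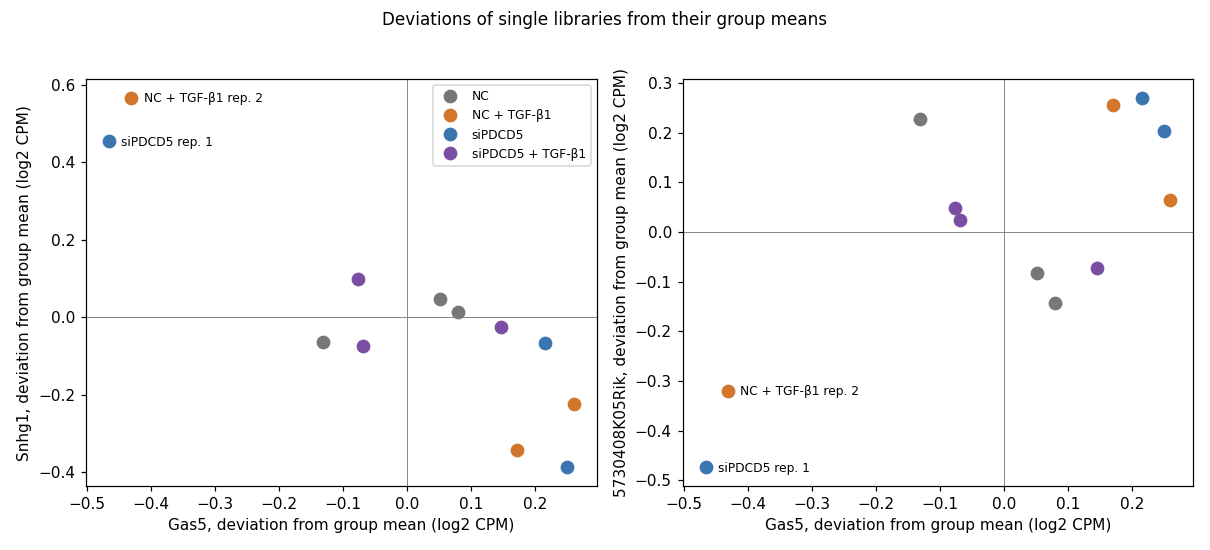
Deviation of each of the 12 libraries from its group mean (log2 CPM) for Snhg1 (left, vertical axis) and 5730408K05Rik (right, vertical axis) against Gas5 (horizontal axes), coloured by group. Replicate 2 of NC + TGF-β1 and replicate 1 of siPDCD5 lie at one end in both panels, with Gas5 at −0.43 and −0.47, Snhg1 at 0.57 and 0.45, and 5730408K05Rik at −0.32 and −0.47.

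The counts of the 8 RNAs past the threshold of the genome-wide test (edgeR's quasi-likelihood test, adjusted p under 0.05) are given beside those of all 12425 genes tested. After TGF-β1 in NC cells 1 of the 7 tested was called, Neat1, lower (15.3% of all genes were called, 8.57% higher and 6.77% lower), and after TGF-β1 in siPDCD5 cells again 1, Neat1, lower (16.1%, 8.5% higher and 7.61% lower). After knockdown without TGF-β1 there were 2, Neat1 and 5730408K05Rik, both higher (3.44%, 0.901% higher and 2.54% lower), and after knockdown with TGF-β1 there was 1, 5730408K05Rik, higher (1.55%, 0.33% higher and 1.22% lower). For the difference of TGF-β1 responses 0 were called (0% of all genes, with 5.13% at an unadjusted p under 0.05, and 15 genes called by DESeq2). Libraries of the groups compared did not overlap for 2, 1, 2 and 2 of the 7 in these 4 comparisons, against 29.6%, 36.1%, 23.1% and 18.9% of all genes. Over 21 alternative fits Neat1 was called in 18 after TGF-β1 in NC cells and in 21 after it in siPDCD5 cells. After knockdown without TGF-β1 Neat1 was called in 15 of the 21. For 5730408K05Rik it was 21 after knockdown both without and with TGF-β1. The 7 were chosen with these values known, so nothing is read from their counts.

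The median log2 fold change of the 7 was −0.02, −0.30, 0.21 and 0.00 in the 4 comparisons, against 0.01, −0.03, 0.02 and −0.02 over all genes tested. Markers of club and other cell types moved with TGF-β1 as well. The club markers Foxa2 and Aldh1a1 fell (−1.77 and −1.22 in NC cells), and the summed club level was 716 to 739 CPM in NC and 283 to 295 CPM in NC + TGF-β1. Of 4 epithelial markers Krt8 and Krt18 rose (1.36 and 1.05 in NC cells), while Cdh1 had −0.58 there and was not called. The remaining marker, Epcam, reached no more than 0.0742 CPM and did not pass the filter. Of 3 basal markers 1, Krt14, passed the filter, while Krt5 and Trp63 reached no more than 0.201 and 0.223 CPM. The basal sum was 10.2 to 11.98 CPM in NC and 169 to 210 CPM in NC + TGF-β1, nearly all of it Krt14. The summed level of 5 fibroblast markers, of which 4 passed, was 2740 to 2901 and 5927 to 6593 CPM in these groups. In siPDCD5 cells the basal sum was 1.92 to 4.51 CPM without and 75.2 to 88.0 CPM with TGF-β1, and the fibroblast sum 1854 to 2324 and 4527 to 4714 CPM. The fibroblast sum was mostly Col1a1, with 2719 CPM in NC and 6119 CPM in NC + TGF-β1. Of the 4 fibroblast markers tested, Col1a1 and Col1a2 rose after TGF-β1 in both NC and siPDCD5 cells, Dcn fell, and Pdgfra had −0.36 and −0.51 and was not called. No basal or fibroblast marker was at 0 in all 12 libraries, and the part of these genes in the levels of Neat1 and the hosts was not tested.

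The other snoRNA host RNAs were Snhg3 to Snhg11, Snhg14 to Snhg18, Snhg20, Zfas1 and Epb41l4aos, 17 in all, of which 16 passed the filter. After TGF-β1 in NC cells 1 of the 16 fell and 0 rose: Zfas1, which hosts C/D box snoRNAs, fell from 238 ± 15.7 to 150 ± 17.3 CPM (SD, n = 3), a log2 fold change of −0.66 (SE 0.10, edgeR, adjusted p = 0.00019). After TGF-β1 in siPDCD5 cells Zfas1 fell from 268 ± 15.7 to 171 ± 5.78 CPM (−0.65, SE 0.10, edgeR, adjusted p = 0.000248), and Snhg18 rose from 42.1 ± 4.53 to 58.1 ± 0.659 CPM (0.46, SE 0.11, edgeR, adjusted p = 0.0108). Their libraries did not overlap between the groups compared, which held for 29.6% of all genes tested in NC cells and 36.1% in siPDCD5 cells. The median log2 fold change of the 16 was 0.05 in NC and −0.31 in siPDCD5 cells.

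After knockdown without TGF-β1 1 of the 16 rose and 1 fell. Snhg3 was higher, at 46.5 ± 6.15 against 31.0 ± 4.22 CPM (0.58, SE 0.13, edgeR, adjusted p = 0.0269), and Snhg18 was lower, at 42.1 ± 4.53 against 58.8 ± 4.59 CPM (−0.48, SE 0.11, edgeR, adjusted p = 0.0318). Of the 16, 14 had a positive log2 fold change, against 6684 of all 12425 genes tested. The median of the 16 was 0.21, against 0.02 over all genes. After knockdown with TGF-β1 0 of the 16 were called by edgeR (3 at an unadjusted p under 0.05) and 1, Snhg9, by DESeq2, and the median was 0.07. In edgeR, Snhg9 had log2 fold changes of 0.68 and 0.77 after knockdown without and with TGF-β1 (adjusted p = 0.0817 and 0.0702), and its siPDCD5 libraries lay above the NC libraries in both. Libraries did not overlap in these comparisons for 23.1% and 18.9% of all genes tested.

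Without the 2 libraries that stood apart, 3, 5, 4 and 3 of the 16 were called, against 29.1%, 24.9%, 9.09% and 8.43% of 12601 genes. Snhg9 was then called after knockdown without (0.89, SE 0.11) and with TGF-β1 (0.61, SE 0.11). With all 12 libraries its SEs were 0.195 and 0.197. Its deviations had r = −0.93 with the component that the 2 libraries led, so leaving them out narrows its spread by construction. Calls over all genes rose as well, from 427 and 192 to 1146 and 1062. Snhg3 was also called in both (0.47, SE 0.11, and 0.48, SE 0.11), while Snhg18 was lower in both (−0.42, SE 0.09, and −0.35, SE 0.09). Of the 16 hosts, 8 were above and 6 below their group means in both of these libraries, Snhg8 by 0.76 and 0.40 at one end and Snhg9 by −0.37 and −0.53 at the other. Gas5 and Snhg1 were thus not the only hosts that moved in opposite directions there.

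**Figure D4:**
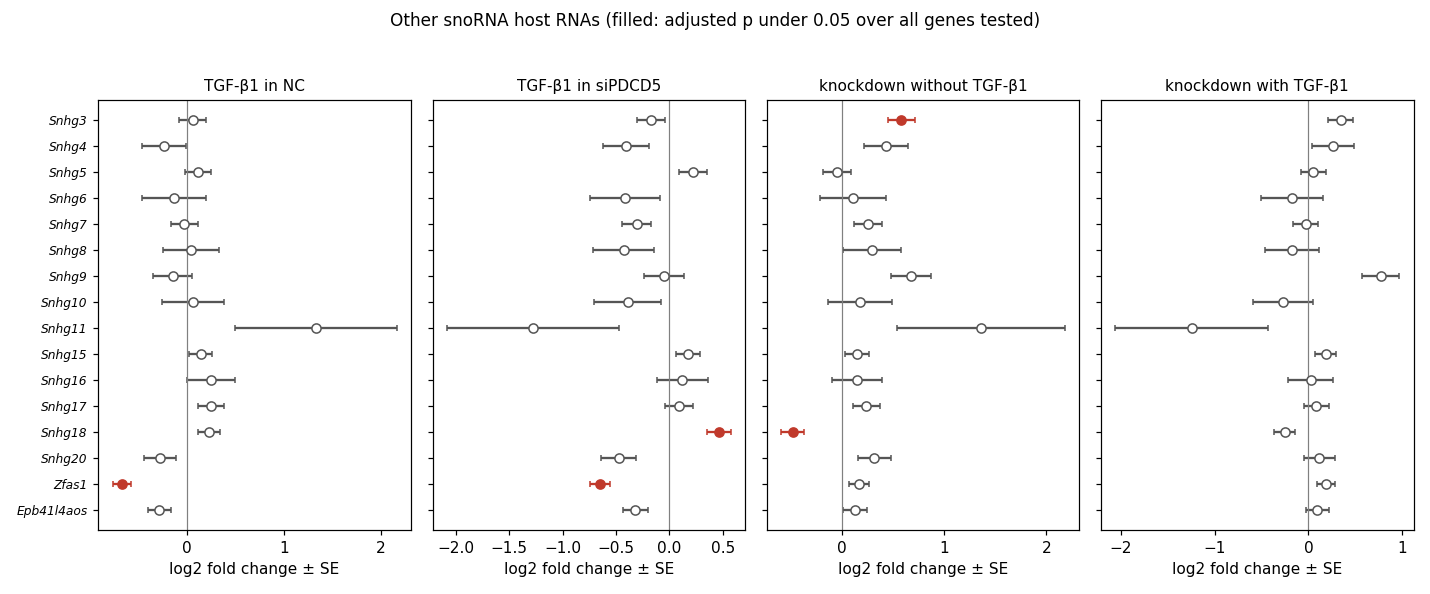
Log2 fold change ± SE (horizontal axes, each panel with its own range) of the 16 other snoRNA host RNAs that passed the filter (vertical axis) in 4 comparisons, with filled red circles where the adjusted p over all genes tested was under 0.05. Zfas1 is filled at −0.66 and −0.65 in both TGF-β1 panels, Snhg18 at 0.46 and −0.48 in the middle panels, and Snhg3 at 0.58 after knockdown without TGF-β1.

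Some protein-coding genes also host snoRNAs. Of 24, 1 rose (Hspa9, a mitochondrial chaperone, log2 fold change 0.41) and 1 fell (Eif4a2, a translation initiation helicase, −0.365) after TGF-β1 in NC cells. After TGF-β1 in siPDCD5 cells 3 rose, Nop58 (0.46), Hspa9 (0.38) and Ncl (0.28), and 0 fell. After knockdown 0 of the 24 were called in edgeR without or with TGF-β1, against 3 and 3 at an unadjusted p under 0.05 and 1 (Nop58) and 0 in DESeq2. The medians were 0.00, 0.13, 0.015 and 0.11. DESeq2 called 4 and 6 after TGF-β1 in NC and siPDCD5 cells. With the 2 libraries that stood apart left out, edgeR called 10 of the 24 after TGF-β1 in NC cells, 5 in each direction, 7 after it in siPDCD5 cells, 6 of them higher, and 2 and 2 after knockdown, against 29.1%, 24.9%, 9.09% and 8.43% of all genes.

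Of 13 proteins of snoRNA particles 0 were called by edgeR after TGF-β1 in NC cells (2 at an unadjusted p under 0.05, and 1, Nop58, by DESeq2), and 2 rose after it in siPDCD5 cells: Nop58, a core protein of the C/D box particles (0.46, edgeR, adjusted p = 0.00069), and Nolc1, their nucleolar chaperone (0.37, edgeR, adjusted p = 0.04). After knockdown without and with TGF-β1 edgeR called 0, against 1 and 6 at an unadjusted p under 0.05 and 1 (Nop58) and 0 in DESeq2. The medians were 0.16, 0.21, 0.10 and 0.21. Without the 2 libraries that stood apart 5, 5, 1 and 2 of the 13 were called in the 4 comparisons, all higher. The shares over all 12601 genes were then 29.1%, 24.9%, 9.09% and 8.43%, with 1919, 1575, 448 and 344 genes called higher. Of 13 messengers of the TOP class outside the ribosome, 1 fell after TGF-β1 in NC cells (Npm1, −0.36) and 1 rose after it in siPDCD5 cells (Eef1g, 0.28), with medians between −0.05 and 0.15. After knockdown without and with TGF-β1 0 were called by edgeR or DESeq2, against 1 and 3 at an unadjusted p under 0.05. Of these messengers 5, 3, 2 and 2 were called without the 2 libraries, against the same shares over all genes.

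The proteins that work with Neat1 and Malat1 were taken as lists of their own. Of 12 paraspeckle proteins 1 was called by edgeR in any of the 4 comparisons: Hnrnph3 fell after TGF-β1 in siPDCD5 cells (−0.72, SE 0.17, edgeR, adjusted p = 0.0091). In the other 3 comparisons 0, 2 and 1 were at an unadjusted p under 0.05, and DESeq2 called 1, Pspc1, after knockdown without TGF-β1. Their medians lay between −0.02 and 0.06. The counts called were 2, 4, 1 and 1 without the 2 libraries that stood apart, against 29.1%, 24.9%, 9.09% and 8.43% of all genes. Of 9 genes for speckle proteins and for the cutting of Malat1, 0 were called by edgeR or DESeq2 (0, 1, 1 and 0 at an unadjusted p under 0.05), with medians between −0.02 and 0.08. Of these, 2, 2, 0 and 0 were called without the 2 libraries, against the same shares of all genes. Of 14 genes of nonsense-mediated decay 1 fell after TGF-β1 in NC cells (Upf3b, −0.33) and 0 were called by edgeR in the other 3 comparisons (2, 1 and 1 at an unadjusted p under 0.05, and by DESeq2 1, Upf2, after TGF-β1 in siPDCD5 cells). When the 2 libraries were left out, 7 of the 14 were called after TGF-β1 in NC cells, against 29.1% of all genes. Of these, 5 were higher and 2 lower. In the other comparisons 0, 1 and 2 of the 14 were called, against 24.9%, 9.09% and 8.43% of all genes.

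Among 28 other long noncoding RNAs 24 had a row and 18 passed the filter. After TGF-β1 in NC cells 3 fell, Dleu2 (−0.88), Lincpint (−1.16) and Hotairm1 (−0.52), and 1 rose, Xist, whose mean in NC cells was under the floor of 3 counts. After TGF-β1 in siPDCD5 cells 4 fell, Dleu2 (−1.26), Fendrr (−0.61), Airn (−0.48) and Lincpint (−0.94), and 0 rose. The median of the 18 was −0.13 and −0.45 in these comparisons. After knockdown without TGF-β1 edgeR called 0 (2 at an unadjusted p under 0.05, and 1, Firre, in DESeq2; median 0.18), and 1, Hotairm1, was higher after knockdown with it (0.62, SE 0.14, edgeR, adjusted p = 0.0405), with a median of −0.03. Of the 18, 4, 5, 1 and 3 were called without the 2 libraries, against 29.1%, 24.9%, 9.09% and 8.43% of all genes.

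Of 21 imprinted genes 20 had a row and 6 passed the filter. Dcn, which encodes the matrix proteoglycan decorin, fell after TGF-β1 in NC (−2.08) and siPDCD5 cells (−1.80) and was higher after knockdown without (0.59) and with TGF-β1 (0.88). Airn fell after TGF-β1 in siPDCD5 cells (−0.48). Of the 6, 1, 4, 1 and 1 were called without the 2 libraries, against 29.1%, 24.9%, 9.09% and 8.43% of all genes. Dcn is also 1 of the 5 fibroblast markers.

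Genes that lie beside the 8 RNAs gave a mixed picture. Slc3a2, the heavy chain of several amino acid transporters, starts 106 bases from Snhg1 on the opposite strand. It rose from 215 ± 5.26 to 404 ± 143 CPM (SD, n = 3) after TGF-β1 in NC cells (0.91, edgeR, adjusted p = 0.00616), where Snhg1 had a log2 fold change of 0.10 (SE 0.22). Without the 2 libraries that stood apart Slc3a2 rose by 0.57 (SE 0.08) and Snhg1 had −0.26 (SE 0.10). Wdr74, on the other side of Snhg1, rose in the same comparison (0.34, edgeR, adjusted p = 0.0339).

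Near the pair Malat1 and Neat1, Frmd8 was not called in any of the 4 comparisons (log2 fold changes of −0.15 to 0.02). Zbtb37, which overlaps 428 bases at the start of Gas5 on the opposite strand, had 22 to 55 counts a library and was not called in the 4 comparisons. The snoRNAs with rows of their own inside the hosts had few counts: Snord47 in Gas5 had 0 to 11, Snord22 in Snhg1 27 to 53, and Snora16a, Snora44, Snora61 and Snord99 in Snhg12 0 to 28. QuantSeq libraries are primed on poly(A), which mature snoRNAs lack, and counts of these rows may also fall on the host.

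The genes whose log2 CPM was most like that of each RNA over the 12 libraries are given as a description, since all share the same libraries. For Neat1 they were Myof and Stx3, a membrane repair and a membrane fusion protein, with Pearson's r of 0.956 and 0.955, and for Malat1 Dcaf5 and Zfp638 (0.910 and 0.902). For 5730408K05Rik they were Cnot6l, a deadenylase, and the ribosomal protein gene Rpl37a (0.972 and 0.944). For Gas5 the highest was Mgmt, a DNA repair enzyme (0.961), for Snhg1 they were Eed, a Polycomb protein, and Llgl1, a polarity protein (0.959 and 0.958), and for Snhg12 Ddit4, a stress-response inhibitor of mTOR, and Rps25 (0.945 and 0.936). For Meg3 the highest were Asah2 and Cwc27 (0.802 and 0.793).

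When the group means were taken out, r was 0.958 for Gas5 and Mgmt and 0.959 and 0.964 for the genes most like Snhg1, about as high as over the groups. For Neat1 it was 0.577 with Myof and 0.763 with Stx3, and for 5730408K05Rik 0.856 with Cnot6l and 0.737 with Rpl37a. Each of these was lower than over the groups.

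Motifs were counted on either strand in the RefSeq windows of 250 bases before and 50 after each start, which were at hand for 6 of the 8 RNAs. CAGACA, the sequence linked to SMAD binding, was in the window of Snhg12 and in 6913 of all 32851 windows. For Gas5 it was in the window of the upstream start and not in that of the start shown above. CACGTG, the E-box that MYC and its relatives bind, was in that of 5730408K05Rik and in 7.15% of all. TATAAA was in those of Snhg1 and 5730408K05Rik, in the upstream window of Meg3 and in 13.6% of all. A match in these letters is a description of the window and not of a bound site.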

How the data were processed

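Libraries were made from total RNA of C22 cells (500 ng each) with a QuantSeq 3′ kit. Per the labels and the study's methods, the authors aligned the reads to mm10 with Bowtie2, counted them per gene and normalized them in edgeR. The deposited values are raw counts per gene symbol, 1 file a library. Uniquely and multiply aligned reads were both counted, so genes with near-identical copies may share reads. The annotation and the strand setting are not given in the sources used here.

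From the counts, CPM with TMM factors and log2 fold changes were computed in edgeR 4.0.16 (R 4.3.3), with a quasi-likelihood fit to the 4 groups over 12 libraries, 12425 genes left by filterByExpr and Benjamini-Hochberg adjustment over all of them. Log2 CPM used a prior count of 2. The threshold was an adjusted p of 0.05. Groups came from the labels. Nothing says that replicates were separate cultures on separate days, so p-values measure the spread between libraries, which may be technical. The steps were tested on simulated data. Floors of 3 counts cover counting error only.

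The 8 RNAs and the gene lists were chosen with earlier results of these data known. Named were the 8, Pdcd5, their neighbours, every called host RNA, the 3 called genes of smallest p in each other list, and the 2 genes most like each RNA among those of mean log2 CPM of at least 3. Genes outside that rule that complete a count of 5 or fewer (Xist, Lincpint, and Nop58, Pspc1, Upf2 and Firre from DESeq2) and the hosts Snhg8 and Snhg9 and single cell type markers were named after their values were seen. Older symbols were matched through RefSeq gene synonyms for some list genes, among them Zfas1 (1500012F01Rik) and Epb41l4aos (Epb4.1l4aos). Positions and transcripts came from GENCODE M21 on GRCm38 (5730408K05Rik from RefSeq) and start windows from RefSeq GRCm38.p6.

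Alternatives were DESeq2 1.42.0, other scalings, quantile normalization with limma 3.58.1, no filter, a replicate block and leaving out libraries. H19 was left out of the fits by the filter. Some genes that the naming rule covers are not reported here.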

Additional observations from a re-analysis of the deposited data

How the results depend on the processing

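Of 730 recomputed log2 fold changes of the 7 RNAs, 713 moved by less than the spread between libraries and 17 by more, among them Malat1 under quantile normalization (0) and Neat1 after TGF-β1 in NC cells, which was −0.63 there against −0.42. H19 was too low to be fitted, with 8 of 12 libraries at or under 3 counts, and the fold changes of Meg3 were limited by its spread between libraries.

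Called genes numbered 1906, 2002, 427, 192 and 0 (TGF-β1 in NC, in siPDCD5, knockdown without and with TGF-β1, difference of responses). Without both libraries that stood apart they were 3663, 3139, 1146, 1062 and 200, and the host list gave 3, 5, 4 and 3. Leaving out single libraries gave 167 to 667 genes after knockdown without TGF-β1 (206 to 235 without NC replicate 3, siPDCD5 replicate 3 or NC replicate 1, 167 without NC replicate 2 and 667 without NC + TGF-β1 replicate 2) and 73 to 322 with it. The 322 came without NC + TGF-β1 replicate 2, and 73, 81 and 87 without siPDCD5 + TGF-β1 replicates 3, 2 and 1, while NC replicate 3 and NC + TGF-β1 replicates 1 and 3 gave 127, 111 and 121. For the difference of responses the range was 0 to 2. The host list ranged from 1 to 2 after TGF-β1 in NC cells, 0 to 2 after knockdown without and 0 to 1 with TGF-β1. DESeq2 called 714, 459 and 15 genes after knockdown without and with TGF-β1 and for the difference of responses. In the host list, total counts gave 4 after TGF-β1 in siPDCD5 cells, and total counts, DESeq2 and no filter each gave 1 after knockdown with TGF-β1. With total counts the split of higher to lower calls was 851 to 1148 against 1065 to 841 after TGF-β1 in NC cells, and 81 to 103 against 41 to 151 after knockdown with it. The causes were not tested.

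Replicate numbers did not pair the libraries: the mean correlation of same-numbered deviations was 0.113, 0.002, 0.023 and −0.14 in the 4 comparisons. With the replicate block 107 genes were called after knockdown with TGF-β1, or 100 with quantile normalization as well, and 1 host RNA after knockdown without TGF-β1.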
